A study of Mus musculus with 8 samples.

Results

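The genes described here are 8 ligands of the bone morphogenetic protein (BMP) family, namely Gdf5, Gdf6, Gdf7, Bmp2, Bmp3, Bmp4, Bmp6 and Bmp7. They are 8 of the 36799 gene names on the array and are covered by 11 probes, each found through its RefSeq accession. Of the 8 ligands, 7 were measured, among 25131 measured gene names, and Gdf6 lay at background. The set was chosen with the ratios of these same arrays known: Gdf5 and Gdf7 because they were higher in Ad/NICD fat, Bmp3 because it was lower, and the others as ligands that stayed near 0 or were dim. The ratios of the 8 ligands are therefore given as a description. Where a count of ligands past the threshold of the fit over all gene names is given, it describes that fit and is no test of the ligands.

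White adipose tissue came from 4 Ad/NICD mice, which overexpress the intracellular domain of Notch1 (the active form of the receptor, N1ICD), and from 4 wild-type (WT) mice. All were 5 weeks old, of the mixed strain 129 × C57BL/6, and on regular chow. The labels call the 4 samples of a genotype biological replicates. Neither the promoter behind the transgene, nor the fat depot, nor any pooling of animals is stated in the sources used here. RNA was hybridised to 4 arrays of 2 colours each, and each array carried the Ad/NICD and the WT sample of 1 replicate number. Ratios are red over green, taken as Ad/NICD over WT. This is the likely direction, because the authors' deposited value table has the red channel in its Ad/NICD columns and the green channel in its WT columns, while the dye tags of the samples state the opposite. If the tags were right, every sign below would turn and the genotype named beside each level would change. No array had its dyes swapped, so a dye bias of a probe and genotype cannot be told apart.

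BMPs and growth and differentiation factors (GDFs) are secreted dimers that are cut from larger precursors by proprotein convertases. They bind pairs of type I and type II serine/threonine kinase receptors, and the type I receptor phosphorylates Smad1, Smad5 and Smad9, which enter the nucleus with Smad4 and induce targets such as the Id genes. Secreted antagonists such as noggin and chordin hold the ligands away from the receptors. In fat, BMP4 is known to commit progenitors to the white adipocyte lineage and BMP7 to favour brown fat formation. GDF5, GDF6 and GDF7 form a subgroup best known from joints and tendons, and BMP3 is known in bone for opposing the action of other BMPs.

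Over all spots, median foreground was between 31 and 40 intensity units in the red channel and between 67 and 79 in the green channel, over median backgrounds of 19 to 20 and of 45 to 46. The share of spots well above background ran from 55.6% to 65.9% over the 8 samples. With 4 arrays, precision is limited by their number. The pair of replicate 4 differed from the others in sex-linked genes: 5 of 5 probes of Y-linked genes were above background in the Ad/NICD sample and 3 of 5 in the WT sample, and 0 of 2 Xist probes in both. In replicates 1 to 3 at most 1 of the 5 Y-linked probes was above background and both Xist probes were. The ligands, the lists and the named genes of the pathway lists are therefore also given without replicate 4 where that moves a value by about 1.5 times or more or turns its sign. Notch1 itself had a log2 ratio of 0.36 ± 0.24 (limma SE, adjusted p = 0.542) and was higher on 2 of 4 arrays. Its log2 signal was 10.32, 8.95, 8.85 and 8.53 in Ad/NICD samples and 9.08, 8.60, 8.86 and 8.67 in WT samples. Notch1 had 2 probes on the array, and these values are from the brightest kept probe only. The position of that probe relative to the transgene is not known here, so Notch1 is no check of the labels. Heyl, a transcription factor known as a Notch target, had 2.87 ± 0.17 and was higher on 4 of 4 arrays.

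Gdf5, a ligand that patterns joints and signals mainly through the receptor BMPR1B, had the largest ratio of the 8 genes. On its brightest probe (A_66_P127070) the log2 signal was 10.36, 10.62, 10.63 and 10.55 in Ad/NICD samples 1 to 4, against 7.69, 8.29, 7.96 and 8.31 in WT samples 1 to 4. The groups did not overlap, and the lowest Ad/NICD sample lay above the highest WT sample. The 4 log2 ratios were 2.67, 2.33, 2.67 and 2.24, with a mean of 2.48 ± 0.225 (SD, n = 4 arrays), a fold of 5.58. The levels spread less among Ad/NICD samples, with an SD of 0.12, than among WT samples, with an SD of 0.29, and this difference in spread was not tested. The other Gdf5 probe (A_55_P2131831) was well above background in all 8 samples but much dimmer. Its log2 signal was 6.67, 7.01, 7.11 and 7.16 in Ad/NICD samples and 6.18, 6.28, 6.30 and 6.52 in WT samples, again without overlap. Its ratio was 0.669 ± 0.138 (SD, n = 4 arrays), higher on 4 of 4 arrays.

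Gdf7, also known as BMP12, is a close relative of Gdf5 with known roles in the spinal cord and in tendon. Its brightest probe (A_66_P126254) gave a log2 signal of 7.42, 7.69, 7.71 and 7.85 in Ad/NICD samples and 6.45, 6.65, 6.75 and 6.76 in WT samples. Every Ad/NICD sample lay above every WT sample, and the sample of replicate 1 was the lowest in both genotypes. The log2 ratios of 0.97, 1.05, 0.96 and 1.09 had a mean of 1.02 ± 0.064 (SD, n = 4 arrays), a fold of 2.03. This SD was the smallest among the 7 measured ligands. The other Gdf7 probe (A_55_P2008214) was above background in 0 of 8 samples and gives no ratio.

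Gdf6, the remaining member of the subgroup, had 1 probe (A_52_P28960), well above background in 1 of 4 Ad/NICD samples and 0 of 4 WT samples. Its log2 signal was 5.92, 6.14, 5.92 and 5.87 in Ad/NICD samples and 5.97, 6.03, 5.90 and 5.91 in WT samples. These values lie near the lowest signal that any probe well above background had in a channel, 5.59 to 5.89 on the 4 arrays. The groups overlap, and no fold is given for a gene that both genotypes left at background.

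Bmp3 was the ligand with a clearly lower signal. Its log2 signal was 6.98, 7.15, 7.23 and 7.01 in Ad/NICD samples, against 8.22, 8.43, 8.29 and 7.98 in WT samples, on its 1 probe (A_52_P207303). The highest Ad/NICD sample lay below the lowest WT sample. The log2 ratios were -1.24, -1.28, -1.06 and -0.97, with a mean of -1.14 ± 0.147 (SD, n = 4 arrays), a fold of 0.455. Both genotypes were well above background in all samples, so the lower Ad/NICD signal is a measured level and not a bound.

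**Figure D1:**
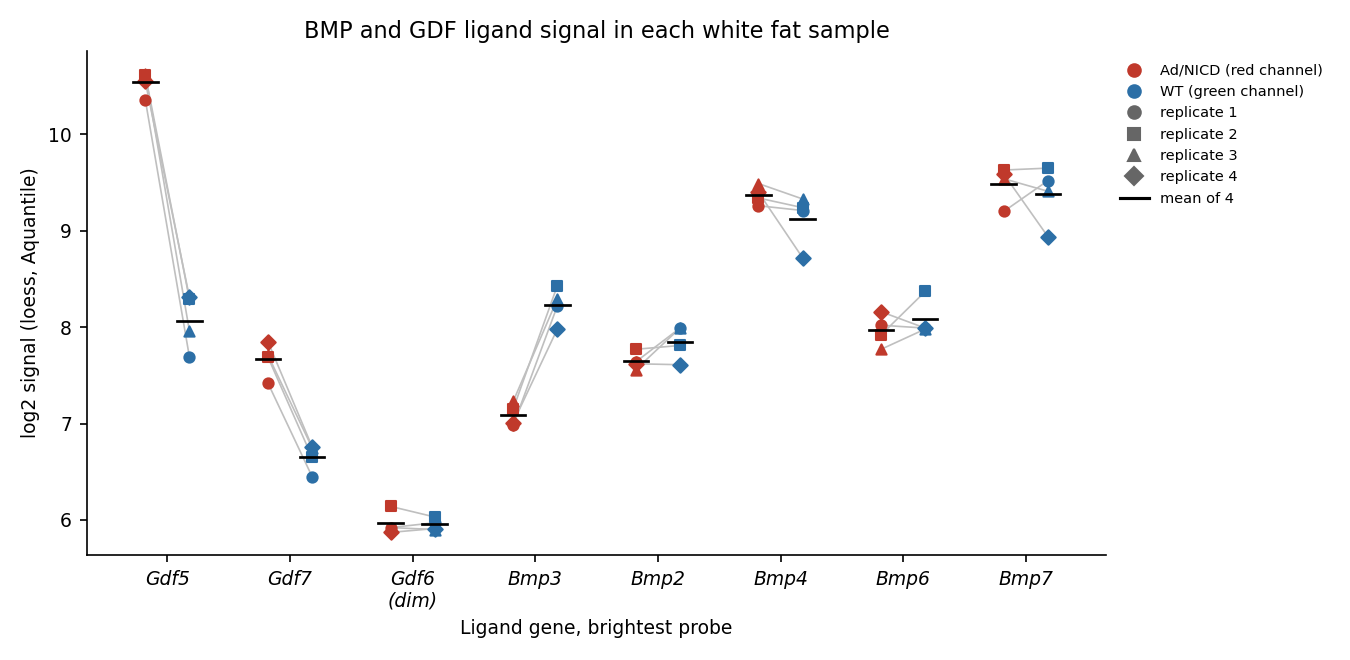
The log2 signal of the brightest probe of each ligand (vertical axis) in the 4 Ad/NICD samples (red, left of each pair) and the 4 WT samples (blue, right), with marker shapes for the replicate, grey lines joining the samples of 1 array and black bars for means. Gdf5 and Gdf7 lie higher and Bmp3 lower in all 4 Ad/NICD samples, while the groups overlap for Gdf6, Bmp2, Bmp4, Bmp6 and Bmp7.

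The classical ligands Bmp2 and Bmp4, which share a subgroup and act early in the commitment of mesenchymal cells, had overlapping groups. Bmp2 had a log2 signal of 7.64, 7.77, 7.56 and 7.62 in Ad/NICD samples and 7.99, 7.81, 7.99 and 7.61 in WT samples. Its ratio was -0.201 ± 0.22 (SD, n = 4 arrays), with -0.43 on array 3 and 0.00 on array 4 (arrays being numbered by replicate), and the mean was -0.12 without replicate 3. Bmp4 had 9.26, 9.34, 9.49 and 9.40 in Ad/NICD samples and 9.21, 9.24, 9.33 and 8.72 in WT samples on its brightest probe (A_55_P2154387). It was higher on 4 of 4 arrays, which held for 11.2% of all gene names, with ratios of 0.04, 0.10, 0.16 and 0.68 and a mean of 0.247 ± 0.293. The WT sample of replicate 4 was the lowest of all 8, and without replicate 4 the mean ratio was 0.10. The other Bmp4 probe (A_55_P1959022) was above background in 0 of 8 samples.

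Bmp6 and Bmp7 form another subgroup. Bmp6, a ligand made by endothelial cells in the liver, where it controls iron balance, had a log2 signal of 8.02, 7.92, 7.77 and 8.16 in Ad/NICD samples and 7.99, 8.37, 7.98 and 7.99 in WT samples. Its ratio of -0.115 ± 0.273 (SD, n = 4 arrays) ran from -0.45 on array 2 to 0.17 on array 4, and its mean was -0.21 without replicate 4. Bmp7 had 9.20, 9.63, 9.54 and 9.59 in Ad/NICD samples and 9.52, 9.65, 9.41 and 8.94 in WT samples. Its ratio was 0.108 ± 0.406, with -0.32 on array 1 and 0.65 on array 4. Without replicate 4 the mean was -0.07, and without replicate 1 it was 0.25, so the sign of the Bmp7 mean depends on replicate 4. As for Bmp4, the lowest of the 8 values was that of the WT sample of replicate 4.

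In limma's paired fit over all gene names, 3 of the 7 measured ligands lay past the threshold (adjusted p under 0.05), namely Gdf5, Gdf7 and Bmp3. Over all gene names 0.0477% passed, 12 of 25131, with 7 higher (0.0279%) and 5 lower (0.0199%). With the array as a random block 1.97% of gene names passed, and without a block 1.02%. The same 3 ligands were those whose groups did not overlap, which held for 9.71% of all gene names, 1054 higher (4.19%) and 1385 lower (5.51%). Since the ligands were chosen on this contrast, nothing is read from these shares. The other 4 measured ligands had mean ratios within 0.3 of 0 on the log2 scale, as 86.6% of all gene names had. The median log2 ratio of all gene names was -0.0059. The calls were sensitive to the arrays used: with any of replicates 1, 2 or 3 left out limma called 0 gene names (an unadjusted p under 0.05 was found for 1993 to 3567), while without replicate 4 it called 43.

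The sizes of the 3 ratios also depended on the processing. With a normexp offset of 10 in place of 50, and all else kept, Gdf5 had 2.69, Gdf7 1.45 and Bmp3 -1.48. The scanner's own processed signals skip both this offset and the loess used here, so they do not isolate the offset. Mean ratios of the scanner's own processed signals were 2.90 for the brightest and 1.94 for the dimmer Gdf5 probe, 1.77 for Gdf7 and -1.68 for Bmp3. On that scale the dimmer Gdf5 probe had 1.93, 2.05, 1.88 and 1.90 on the 4 arrays, where the values with the offset were 0.49, 0.73, 0.81 and 0.64. The gap between the 2 Gdf5 probes thus narrowed but did not close. Gdf7 had 1.88, 1.74, 1.62 and 1.85, and Bmp3 had -2.01, -1.75, -1.55 and -1.39. Bmp2, Bmp4, Bmp6 and Bmp7 stayed small, at means of -0.21, 0.34, -0.12 and 0.17. With arrays centred on their median in place of loess, Gdf7 had 0.79, Gdf5 1.98 and Bmp3 -1.49, in a setting that took the median of all gene names to -0.319. Bmp4 and Bmp7 turned negative there, at -0.25 and -0.40, values that lie within 0.1 of that median.

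**Figure D2:**
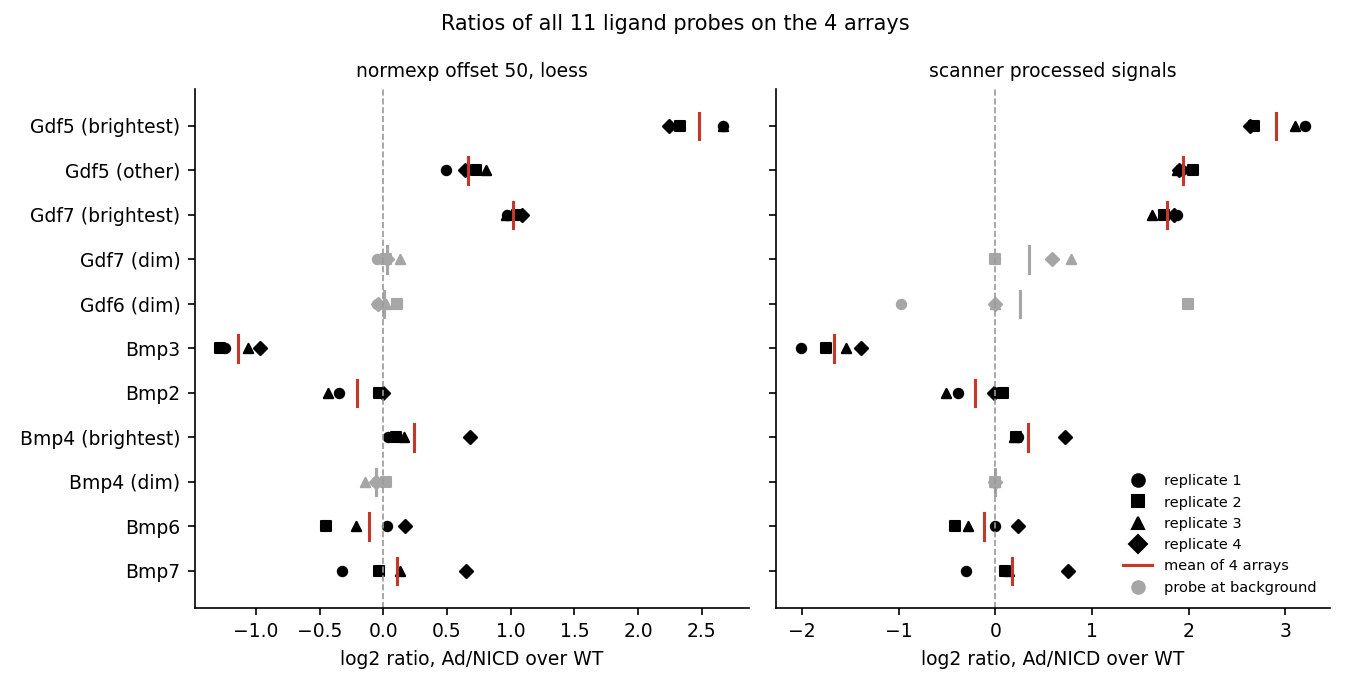
Log2 ratio of Ad/NICD over WT (horizontal axis) for each of the 11 ligand probes on the 4 arrays, after normexp with an offset of 50 and loess (left) and from the scanner's processed signals (right), with marker shapes for replicates, vertical bars for means and grey for probes at background. Both Gdf5 probes and the brightest Gdf7 probe lie above 0 and Bmp3 below 0 on all 4 arrays on both scales, and the dimmer Gdf5 probe has a mean of 0.669 on the left and 1.94 on the right.

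Upstream sequence was matched in a RefSeq table (GRCm38.p6) for 3 of the 8 ligands, Gdf7, Bmp4 and Bmp6. It is shown because Gdf7 differed between the genotypes while Bmp4 and Bmp6 did not separate them. Each line gives the 250 bases before the annotated start, 5′ to 3′ on the gene's strand, for Gdf7 at chr12:8301955-8302204 (minus strand), Bmp4 at chr14:46390670-46390919 (minus strand) and Bmp6 at chr13:38345466-38345715 (plus strand). Capitals mark matches to any of 3 motifs searched on both strands: TGGGAA, the core of the site bound by CSL (RBPJ), the DNA-binding partner of the Notch intracellular domain, CACGTG, an E-box of the kind bound by basic helix-loop-helix factors, and TATAAA, the TATA box.
Gdf7: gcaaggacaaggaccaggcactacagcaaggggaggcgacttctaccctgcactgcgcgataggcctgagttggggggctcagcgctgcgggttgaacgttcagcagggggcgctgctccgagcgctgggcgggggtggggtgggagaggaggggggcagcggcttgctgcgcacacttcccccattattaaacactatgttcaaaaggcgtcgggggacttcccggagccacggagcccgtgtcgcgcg
Bmp4: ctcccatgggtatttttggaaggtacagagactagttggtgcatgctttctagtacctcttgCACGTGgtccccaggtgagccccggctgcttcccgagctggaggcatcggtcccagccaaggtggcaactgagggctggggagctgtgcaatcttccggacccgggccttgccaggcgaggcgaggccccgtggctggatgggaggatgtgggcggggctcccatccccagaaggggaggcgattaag
Bmp6: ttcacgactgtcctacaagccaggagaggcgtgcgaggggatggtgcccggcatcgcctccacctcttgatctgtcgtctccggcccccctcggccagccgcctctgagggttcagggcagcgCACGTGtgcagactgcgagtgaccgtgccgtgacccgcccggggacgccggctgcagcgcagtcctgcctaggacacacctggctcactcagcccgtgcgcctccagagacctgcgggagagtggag
The Gdf7 window held none of the 3 motifs. The Bmp4 and Bmp6 windows each held 1 CACGTG, starting 188 and 127 bases before the annotated start, and no other match. Among 32851 windows of the same length in the table, 21.6% held TGGGAA, 6.02% held CACGTG and 12.4% held TATAAA. All 3 windows were rich in G and C, at 66.0% for Gdf7, 63.2% for Bmp4 and 68.8% for Bmp6, where the median window had 52.4%. These are matches of letters in short windows and show no binding.

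Among the measured gene names with a RefSeq symbol, those whose log2 levels over the 8 samples were most like Gdf5 were Anxa2 (Pearson r = 0.98), Gdf7 (r = 0.979) and Akr1cl (r = 0.978). The closest to Gdf7 were Anxa2 (r = 0.985), Foxs1 (r = 0.98) and Gdf5 (r = 0.979). Anxa2, a calcium-dependent membrane-binding protein, had a ratio of 0.94 ± 0.063 (limma SE, n = 4 arrays), Foxs1, a forkhead transcription factor, 0.66 ± 0.075 and Akr1cl, an aldo-keto reductase family member, 3.33 ± 0.21. Closest to Bmp3 were Klf11, a zinc finger transcription factor (r = 0.99, ratio -0.36 ± 0.063), Cnot6l, a subunit of the CCR4-NOT deadenylase (r = 0.985, ratio -0.36 ± 0.059), and Fxr1, an RNA-binding protein (r = 0.983, ratio -0.31 ± 0.065). Bmp3 ran opposite to Gdf5 (r = -0.958) and to Gdf7 (r = -0.938). These correlations are descriptions: the 8 samples share 4 arrays and fall into 2 genotypes, and the step between genotypes sets most of each value.

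In RefSeq order, with coordinates used only for the order, the 2 nearest measured genes on each side of the 3 ligands make 12 neighbours. Of the 12, 0 passed limma's threshold, the lowest adjusted p being 0.263, and none had groups that did not overlap. Beside Gdf5, Uqcc1 had a ratio of -0.04 ± 0.16 (adjusted p = 0.927) and Cep250 0.15 ± 0.15 (adjusted p = 0.682). Beside Gdf7, Ldah, a lipid droplet hydrolase, had -0.27 ± 0.088 (adjusted p = 0.263) and Hs1bp3 -0.13 ± 0.092 (adjusted p = 0.574). Beside Bmp3, Prdm8 had -0.04 ± 0.22 (adjusted p = 0.954) and Prkg2 0.18 ± 0.14 (adjusted p = 0.614). Over the 12 genes, which were picked by position, ratios ran from -0.33 to 0.18.

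The other genes of the pathway were examined in 6 lists, with 64 of 79 genes measured. Of these 64, 0 passed limma's threshold over all gene names, 6 had an unadjusted p under 0.05 (9.38%, where 15.2% of all gene names had) and the lowest adjusted p was 0.16. Their median log2 ratio was 0.032, with 35 above 0, where 48.4% of all gene names were above 0. The lowest ratio was that of Id1, at -0.68. Groups that did not overlap were found for 6 of the 64, 2 higher and 4 lower, close to the 9.71% of all gene names.

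Among the other ligands of the TGF-beta superfamily, 18 of 25 were measured, with 0 called and a median of 0.072, or 0.029 without replicate 4 and 0.138 without replicate 1. Bmp8a had a log2 signal of 9.12, 9.37, 8.46 and 8.32 in Ad/NICD samples and 8.29, 8.47, 8.34 and 8.26 in WT samples. Its ratio of 0.48 ± 0.18 (adjusted p = 0.307) was large on the arrays of replicates 1 and 2, at 0.84 and 0.89, and small on those of replicates 3 and 4, at 0.12 and 0.06. Tgfb1 had 0.26 ± 0.099 (adjusted p = 0.317) and Gdf11, a ligand close to myostatin, had 0.11 ± 0.058 (adjusted p = 0.442).

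Of 13 receptors and co-receptors, 11 were measured and 0 were called, with a median of -0.004 that ran from -0.083 without replicate 4 to 0.085 without replicate 2. Endoglin (Eng), a co-receptor of endothelial cells, had the lowest p. Its log2 signal was 9.66, 9.95, 9.67 and 9.89 in Ad/NICD samples and 10.10, 10.28, 10.20 and 10.06 in WT samples, without overlap, and its ratio was -0.36 ± 0.08 (adjusted p = 0.16). Tgfbr3, a co-receptor also called betaglycan, had -0.23 ± 0.11 (adjusted p = 0.395). Ror2 had 0.25 ± 0.20 (adjusted p = 0.605), or 0.08 without replicate 4. Acvr1c (ALK7), a type I receptor for Nodal and activins, is not on the list. It is 1 of the 12 gene names that passed, with a ratio of -1.71 ± 0.11 (adjusted p = 0.0398) on the brightest kept of its 2 probes. The log2 signal there was 9.43, 8.88, 8.97 and 9.74 in Ad/NICD samples, against 10.82, 10.80, 10.88 and 11.37 in WT samples.

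Of 16 secreted antagonists, 13 were measured and 0 were called, with a median of 0.04, or 0.145 without replicate 1 and 0.065 without replicate 3. Bmper, a secreted BMP-binding protein of blood vessels, had 0.29 ± 0.068 (adjusted p = 0.173) and was higher on 4 of 4 arrays. Fstl1, a follistatin-like protein of connective tissue, had 0.50 ± 0.33 (adjusted p = 0.529), from -0.58 on array 1 to 1.51 on array 4, and 0.17 without replicate 4. Of the Smads and their regulators, 7 of 9 were measured, with 0 called and a median of -0.031, which ran from -0.109 without replicate 2 to 0.062 without replicate 1 and was -0.074 without replicate 4. Smad4, the shared Smad, had 0.20 ± 0.082 (adjusted p = 0.349), or 0.12 without replicate 4. Smurf1, a ubiquitin ligase that acts on Smads, had -0.16 ± 0.077 (adjusted p = 0.396) and Smurf2 -0.13 ± 0.062 (adjusted p = 0.417).

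The 9 target genes were all measured, with 0 called and a median of 0.042, or -0.018 without replicate 3 and 0.013 without replicate 2. Id1, an inhibitor of basic helix-loop-helix factors and a usual readout of BMP signalling, had a log2 signal of 10.37, 10.22, 10.40 and 9.90 in Ad/NICD samples and 10.62, 11.32, 10.59 and 11.10 in WT samples. Every Ad/NICD sample lay below every WT sample, and the ratio of -0.68 ± 0.21 (adjusted p = 0.244) was made of -0.26, -1.10, -0.18 and -1.20 on the 4 arrays. Atoh8 had -0.18 ± 0.075 (adjusted p = 0.341) and Id3 0.11 ± 0.065 (adjusted p = 0.493), the latter 0.07 without replicate 4. Among convertases and tolloid proteases, 6 of 7 were measured, with 0 called and a median of 0.083. That median was -0.089 without replicate 4, 0.22 without replicate 1 and 0.138 without replicate 3, so its sign depends on replicate 4. Furin, which cuts BMP precursors, had 10.09, 9.85, 10.08 and 9.95 in Ad/NICD samples and 10.22, 10.23, 10.23 and 10.20 in WT samples. The groups did not overlap, and the ratio was -0.23 ± 0.07 (adjusted p = 0.24). Tll1 had 0.33 ± 0.13 (adjusted p = 0.332), or 0.22 without replicate 4, and Pcsk7 0.10 ± 0.062 (adjusted p = 0.50).

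**Figure D3:**
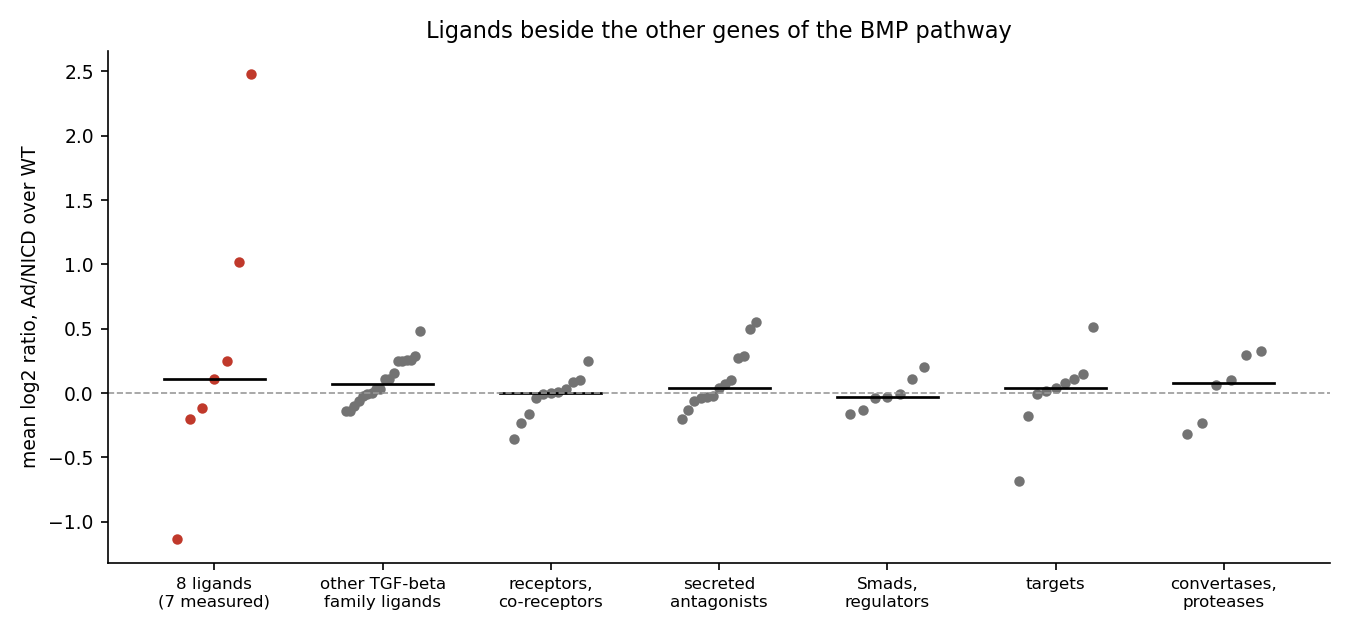
Mean log2 ratio of Ad/NICD over WT (vertical axis) for the 7 measured ligands (red) and for the measured genes of the 6 other lists of the pathway (grey), with points sorted within a list and black bars for medians. The ligands span -1.14 to 2.48, and the lowest of the 64 other genes lies at -0.68.

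Markers of cell types gave ratios of their own on the same arrays, and in bulk tissue fewer cells of a type and less RNA per cell cannot be told apart. Adipocyte markers were below 0 for 7 of 10 genes, at a median ratio of -0.562. Their mean log2 signal was 12.79 to 13.64 in Ad/NICD samples and 13.64 to 13.96 in WT samples. All 10 skeletal muscle markers were below 0, with a median of -1.889 and array medians of -0.68, -2.13, -0.69 and -3.86, and the median was -1.131 without replicate 4. Their mean log2 signal was 6.86 to 8.82 in Ad/NICD samples and 7.58 to 11.89 in WT samples. All 10 endothelial markers were below 0 as well, with a median of -0.259 and a mean log2 signal of 10.04 to 10.44 in Ad/NICD samples and 10.45 to 10.57 in WT samples. All 10 progenitor markers were above 0, with a median of 0.248 and a mean log2 signal of 11.54 to 12.01 in Ad/NICD samples and 11.12 to 11.75 in WT samples. By array, the progenitor median was -0.20, 0.58, -0.01 and 0.83. It peaked on the array of replicate 4, as the ratios of Bmp4 and Bmp7 did. Most pathway and marker lists shared that peak, among them macrophage markers (0.74) and proteases (0.54). Targets and the skeletal muscle, mammary, Schwann cell and lymphocyte markers had their highest median on another array. Without replicate 4 the progenitor median was 0.07, without replicate 1 it was 0.44 and without replicate 2 it was 0.138. Over all 11 marker lists, 0 of 83 measured markers passed limma's threshold and 30 had an unadjusted p under 0.05 (36.1%, where 15.2% of all gene names had).

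Gdf5 and Gdf7 are known to act in cartilage and tendon. Of 7 markers of these tissues 5 were measured, with ratios from -0.72 to 0.08, a median of -0.10 (-0.262 without replicate 4), 1 of 5 above 0, 1 with an unadjusted p under 0.05 and array medians of -0.28, -0.19, -0.08 and 0.14. Their mean log2 signal was 6.53 to 7.12 in Ad/NICD samples and 6.40 to 7.32 in WT samples, and Tnmd and Matn3 were not among the measured gene names. Schwann cell markers had a median of 0.289 with 5 of 6 above 0, macrophage markers 0.095 with 5 of 8, smooth muscle markers -0.237 with 1 of 7, lymphocyte markers -0.096 with 2 of 7, mammary epithelial markers -0.434 with 0 of 7 and mesothelial markers -0.15 with 0 of 3. With 1 replicate left out, the medians of macrophage markers ran from -0.105 (without replicate 4) to 0.348 (without replicate 1), of mesothelial markers from -0.226 (without replicate 3) to 0.016 (without replicate 1), of mammary markers from -0.881 (without replicate 3) to -0.232 (without replicate 2), of lymphocyte markers from -0.283 (without replicate 2) to -0.024 (without replicate 3) and of Schwann cell markers from 0.237 (without replicate 4) to 0.469 (without replicate 2). The array ratios of Gdf5, Gdf7 and Bmp3 each kept 1 sign on the 4 arrays. So did the array medians of skeletal muscle markers (-3.86 to -0.68) and adipocyte markers (-1.03 to -0.01). Endothelial markers (-0.42 to -0.11) and Schwann cell markers (0.24 to 0.55) did as well, and the other marker lists did not. The part of any cell type in the ratios of the ligands was not tested.

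**Figure D4:**
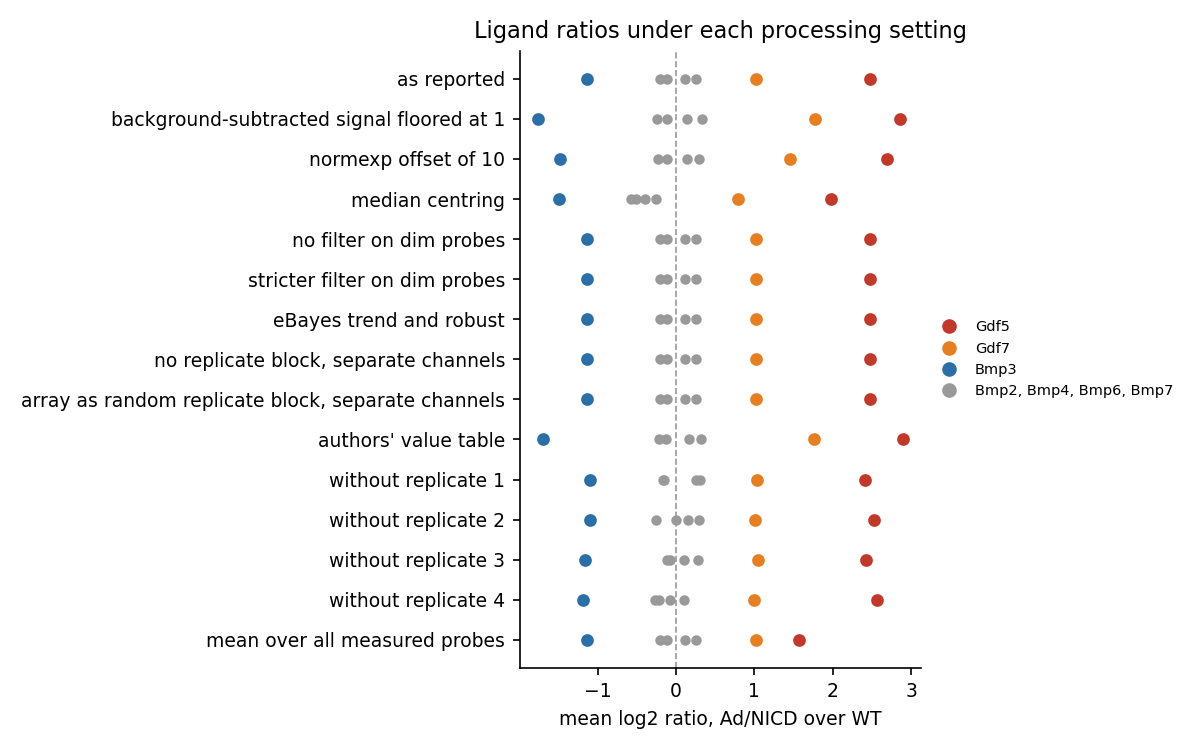
Mean log2 ratio of Ad/NICD over WT (horizontal axis) of the 7 measured ligands under the reported setting and 14 alternatives (vertical axis). Gdf5 (red) stays between 1.57 and 2.89, Gdf7 (orange) between 0.79 and 1.77 and Bmp3 (blue) between -1.76 and -1.09, and the 4 other ligands (grey) lie between -0.57 and 0.33.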

How the data were processed

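The submitters' processing notes name Agilent Feature Extraction 11.5. Each deposited scanner table gives intensity values per spot (foreground and background medians, signals after background subtraction, and processed signals) and a log10 ratio of red over green processed signal. A deposited table of the authors' values on a log2 scale equals the log2 processed signal of 1 channel minus a constant per column. Column medians were -3.84 to -3.52. Its scale and centring are known from the values, and the likely direction was taken from the channel in each column. Tables of the same replicate number were identical, so there are 4 arrays.

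Background was corrected with normexp (offset 50) and loess was applied within arrays, controls having weight 0 (limma 3.58.1 in R 4.3.3). Levels are channel signals after Aquantile scaling. A probe was measured if either channel was well above background on 3 or more of the 4 arrays. The array of replicate 1 lacks these flags, and they were rebuilt as a threshold of 5.85 trimmed SDs of the negative controls. This multiple was taken from the flags of the other arrays. On those same arrays it gave the scanner's flag for 96.9% to 100% of spots, which is no independent check of replicate 1. The brightest kept probe stood for a gene name. Of 55681 probes, 28020 took a RefSeq symbol by accession.

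Ratios were tested against 0 with limma, the array being the pair, with Benjamini-Hochberg adjustment over all 25131 gene names and a threshold of 0.05. As deviations from group means, same-numbered samples of replicates 1 to 4 correlated at 0.18, 0.17, 0.56 and 0.53. The highest correlations with a sample of another number were 0.28, 0.14, 0.28 and -0.02, so the pairing showed clearly only in replicates 3 and 4. The fit was tested on simulated data. The ligands, lists and naming rules were chosen with earlier results of these data known. Named genes are the ligands, the 3 lowest p-values of each pathway list (1 of these genes is not reported here) and the 3 gene names most like Gdf5, Gdf7 and Bmp3. Neighbouring genes, Notch1, Heyl, Acvr1c and the sex-linked genes were added later. Alternatives covered background correction, scaling, filters, probe choice, the pairing, the authors' table and leaving out each replicate.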

Additional observations from a re-analysis of the deposited data

Results flagged for a closer look

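In groups of 4 samples, 2 values stood apart from the other 3 by a Dixon test, out of 39 groups of ligand and list values tested, where chance flags about 1 in 20 groups. The WT sample of replicate 2 had a Bmp6 log2 signal of 8.37, with the other WT samples at 7.98 to 7.99. The WT sample of replicate 2 was also lowest for the Bmp4 probe that lay at background, at 5.78, with the others at 5.89 to 5.91.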

How the results depend on the processing

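Over 14 alternatives Gdf5, Gdf7 and Bmp3 kept their sign, but Gdf5 was called in 8 and Gdf7 and Bmp3 in 6 each. With the background-subtracted signal floored at 1, Gdf5 had 2.86, Gdf7 1.77 and Bmp3 -1.76, and limma called 3 gene names, with Gdf5 among them and Gdf7 and Bmp3 not. From the authors' value table the ratios were 2.89, 1.76 and -1.69, with 3 gene names called, again with Gdf5 and without Gdf7 and Bmp3. With a normexp offset of 10, Gdf7 had 1.45 and Bmp3 -1.48. The mean of both Gdf5 probes was 1.57. With median centring, which moved the median of all gene names from -0.0059 to -0.319, Gdf5 had 1.98, Gdf7 0.79, Bmp3 -1.49, Bmp2 -0.57, Bmp4 -0.25, Bmp6 -0.51 and Bmp7 -0.40. The list medians there were -0.208 for other ligands, -0.502 for receptors, -0.297 for antagonists, -0.48 for Smads, -0.306 for targets and -0.388 for proteases, and 0 gene names were called (9621 at an unadjusted p under 0.05). No filter on dim probes and eBayes with trend and robust settings also gave 0 (5094 and 2898 at an unadjusted p under 0.05). Without the replicate block, in separate channels, 256 gene names passed, and with the array as a random replicate block 496, Gdf5, Gdf7 and Bmp3 among both and 0 genes of the 6 pathway lists in either. Leaving out 1 replicate gave 0 to 43 calls and ratios of 2.41 to 2.56 for Gdf5, 0.99 to 1.04 for Gdf7, -1.19 to -1.09 for Bmp3, -0.27 to -0.12 for Bmp2, 0.10 to 0.31 for Bmp4, -0.21 to 0.00 for Bmp6 and -0.07 to 0.25 for Bmp7. The cause of these shifts was not tested. No bound was needed, since no measured ligand lay at background in 1 genotype only. Dim probes limit Gdf6, 1 Gdf7 probe and 1 Bmp4 probe.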
